A study of Rattus norvegicus with 9 samples.

Results

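The genes described here are 47 genes that encode the enzymes and membrane proteins of the lysosome. They were taken by name from a list, and each is represented by the array probe that carries its symbol, the brightest one where a gene has several. A probe of that name was found for 44 of the 47 genes, and all 44 were tested, among 23747 probes tested of 30367 on the array. Npc1, Sgsh, and Naglu had no probe of that name. Gene expression had been profiled on 9 one-color Agilent arrays, 1 array per rat, to ask which genes change after cerebral ischemia and reperfusion and after treatment with Danhong injection (DHI), a herbal preparation of Danshen and Honghua. All rats were male Sprague-Dawley rats, and RNA came from the infarcted side of the brain at day 14. The 3 I/R rats had the middle cerebral artery blocked for 2 h with a nylon suture, which was then withdrawn to let the blood return. The 3 DHI rats had the same surgery and then received DHI through the tail vein every day until day 14. The methods give the dose of these rats in a different unit from the doses of the study, and it is not given here. The 3 Sham rats had surgery that exposed the external carotid artery but placed no suture in it, and they were injected with solvent. The sources used here give no age of the rats and do not say what the I/R rats were injected with.

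Lysosomes are the acid compartments in which cells break down proteins, sphingolipids, glycosaminoglycans, glycoproteins, glycogen, and cholesterol esters, each by its own hydrolases. A proton pump, the vacuolar ATPase, keeps them acid, and receptors for mannose 6-phosphate bring newly made enzymes to them. Most lysosomal genes are used by every cell of the brain, and inherited loss of many of them causes storage disease with loss of neurons. Microglia and macrophages, which take up dead cells and myelin after a stroke, are rich in lysosomes. The transcription factor TFEB and its relatives are known to bind a short palindrome, the CLEAR element, in the promoters of many lysosomal genes.

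The promoters are shown first because they are the sequences the genes have in common or lack. The RefSeq table (GRCr8) held a promoter, from 250 bases before to 50 bases after the annotated start, for 40 of the 47 genes. The E-box core CACGTG, which reads the same on both strands, was found in 10 of these 40 promoters (25%) and in 6.65% of all 27457 promoters of that table. The longer word TCACGTGA, the core of the CLEAR element, which contains the E-box core, was found in 5 of 40 (12.5%), those of Ctsd, Lamp1, Cln3, Mcoln1, and Galc, against 0.867% of all promoters. The full CLEAR element, with 1 more base on either side, was found for Galc alone, against 0.277% of all promoters. GAGGAAGT, a word that the myeloid factor PU.1 and other ETS factors are known to bind, was searched on both strands and was found for Ctsc, Ctse, Ctss, and Gla (10%), against 2.44% of all. A match is a match of letters only, and binding was not measured. The bases just before the start are given below for 4 genes with the CLEAR core and for 2 proteases of immune cells with the PU.1 word, 5′ to 3′ on the strand of the gene. Capitals mark CACGTG in the first 4 and the reverse complement of GAGGAAGT in the other two.

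Lamp1 (chr16:83075064-83075313, minus strand): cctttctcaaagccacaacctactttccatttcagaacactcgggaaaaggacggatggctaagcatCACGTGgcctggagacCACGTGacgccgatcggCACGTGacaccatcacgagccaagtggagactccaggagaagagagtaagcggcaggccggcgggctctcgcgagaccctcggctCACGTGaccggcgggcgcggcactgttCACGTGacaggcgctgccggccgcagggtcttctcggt
Ctsd (chr1:206968822-206969071, minus strand): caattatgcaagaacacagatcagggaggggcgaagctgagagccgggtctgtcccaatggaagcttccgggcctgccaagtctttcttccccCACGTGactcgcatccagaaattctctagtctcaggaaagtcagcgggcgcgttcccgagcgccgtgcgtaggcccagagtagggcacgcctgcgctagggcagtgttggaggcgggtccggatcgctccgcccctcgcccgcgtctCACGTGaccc
Galc (chr6:123245560-123245659, minus strand): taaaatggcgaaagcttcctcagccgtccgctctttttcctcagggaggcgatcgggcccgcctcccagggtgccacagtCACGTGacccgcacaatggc
Cln3 (chr1:190597930-190598029, minus strand): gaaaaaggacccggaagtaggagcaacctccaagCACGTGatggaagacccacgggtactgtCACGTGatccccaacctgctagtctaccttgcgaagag
Ctss (chr2:185775296-185775395, plus strand): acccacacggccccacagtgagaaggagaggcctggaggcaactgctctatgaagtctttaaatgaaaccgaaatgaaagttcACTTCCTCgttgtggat
Ctse (chr13:45644115-45644214, plus strand): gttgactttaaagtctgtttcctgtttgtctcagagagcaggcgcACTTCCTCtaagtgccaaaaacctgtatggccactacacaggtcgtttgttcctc

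Every value below is a log2 signal, that is, the log2 intensity of the probe minus the log2 of the 75th percentile of the intensities of its array, so that 0 is the level of that percentile. Probes differ in brightness, and levels are compared between arrays only. A gene was called changed when its unadjusted p was under 0.05 and its fold change (FC) over 1.5, the thresholds of the study. The p came from limma, in 1 model over the 9 arrays and 23747 probes, and p-values adjusted by the Benjamini-Hochberg method over all of these probes are given beside it. The precision of every value is limited by the number of arrays, and with 3 arrays against 3 an exact permutation test of a single gene cannot go below p = 0.1. All 44 genes were well above background on all 9 arrays, and no probe was saturated. Slide 1 held the Sham and I/R arrays and slide 2 those of DHI, so that an effect of the slide and one of DHI cannot be told apart. Neuron, astrocyte, and oligodendrocyte markers were well above background on all Sham arrays, and this is bulk tissue, in which fewer cells of a type and less RNA per cell cannot be told apart.

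Before the groups are compared, the arrays themselves need a description, because the DHI arrays did not lie together. The median deviation of the 44 genes from their Sham mean was between -0.05 and 0.07 on the Sham arrays. It was 2.34 on I/R 1, 2.01 on I/R 2, and 1.28 on I/R 3. It was 1.70 on DHI 1, -0.02 on DHI 2, and 0.21 on DHI 3. DHI 1 therefore lay among the I/R arrays, and the other two DHI arrays lay near Sham. DHI 1 was closer to the I/R mean than to the Sham mean for 43 of the 44 genes and within the range of the I/R arrays for 40. DHI 2 was closer to the Sham mean for 43 genes and below every I/R array for 39, where 32.6% of all probes were. DHI 3 was closer to the Sham mean for 41 genes and below every I/R array for 38, against 29.1% of all probes. DHI 3 was above every Sham array for 26 of the 44 genes, against 39.6% of all probes, and DHI 2 for 11 of 44, a smaller share than the 39.1% of all probes. Among the I/R arrays, I/R 1 was the highest for 37 genes and I/R 3 the lowest for 42. The SD between arrays had a median over the genes of 0.14 for Sham, 0.55 for I/R, and 1.03 for DHI.

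**Figure D1:**
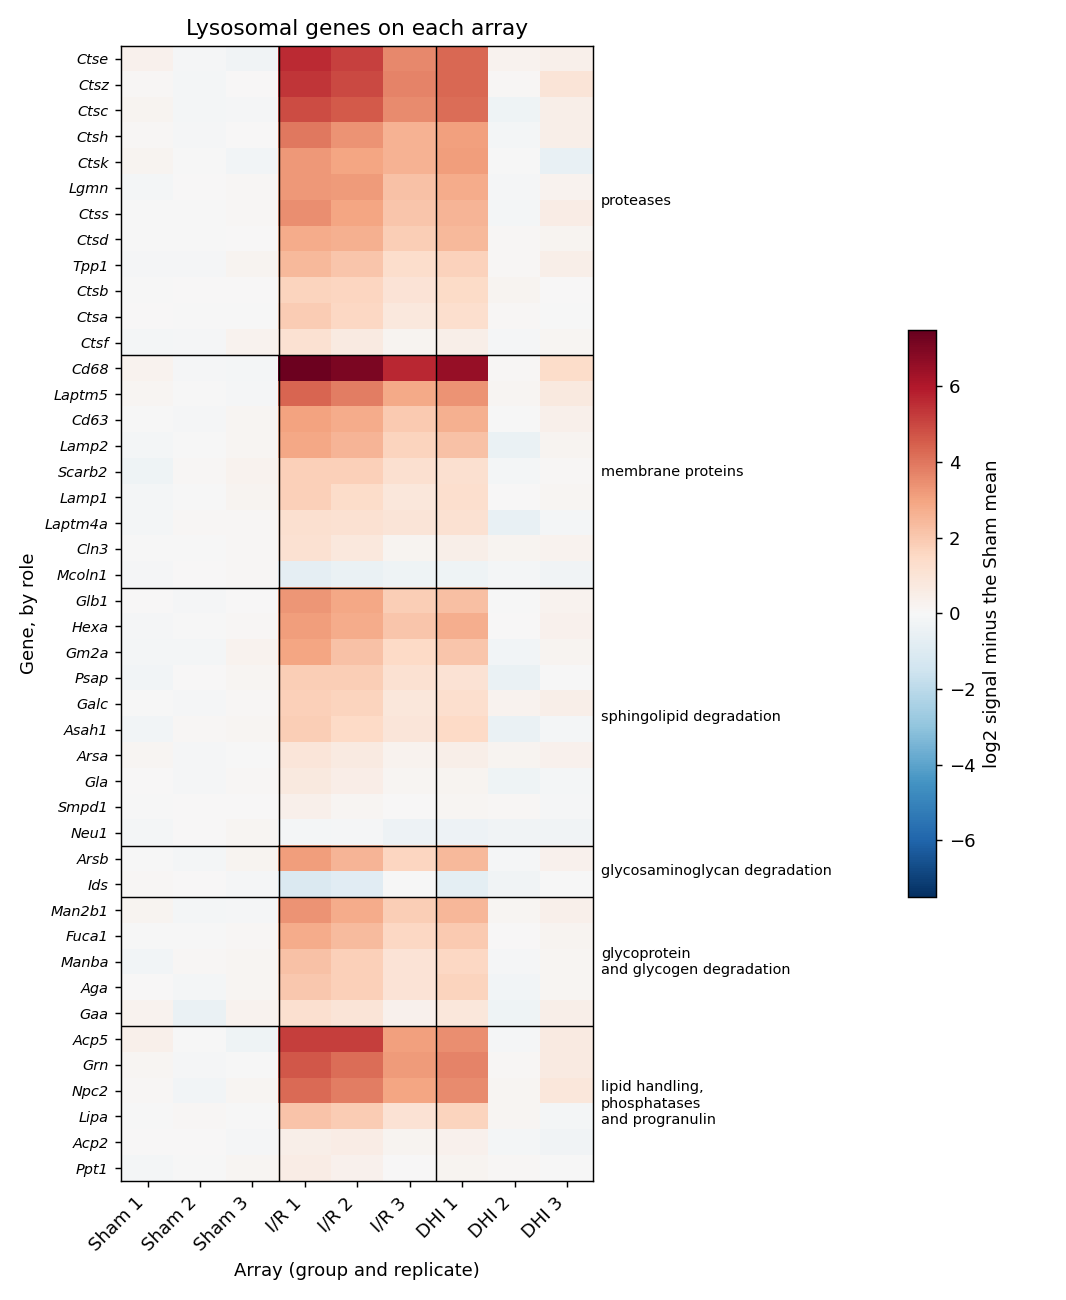
Log2 signal of the 44 lysosomal genes (rows, by role, each role ordered by the difference between I/R and Sham) on the 9 arrays (columns), as the deviation from the mean of the 3 Sham arrays on the color scale. The I/R arrays and DHI 1 are red for most genes, and DHI 2 and DHI 3 are near white for most. Mcoln1 and Ids lie below the Sham mean on I/R 1 and I/R 2, by amounts that are at most a faint blue on this scale.

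In I/R versus Sham, nearly the whole list was higher after ischemia and reperfusion. At the study's thresholds 36 of the 44 genes were called higher in I/R and 0 lower, while 20.8% of all probes were called higher and 22.3% lower (43.1% in either direction). With no scaling between arrays 38 were called higher and 0 lower, and 25.3% and 16.2% of all probes. The highest rises were those of Cd68 (FC 103), Ctse (FC 27.4), and Ctsz (FC 25.5), genes known from phagocytes and other immune cells. With the adjusted p in place of the unadjusted p, 33 were called higher, where 16.4% of all probes were. The log2 FC was positive for 41 of the 44 genes and for 45.3% of all probes, with a median of 1.84 over the genes and -0.10 over all probes. The 3 I/R arrays lay above the 3 Sham arrays for 38 genes (26.7% of all probes) and below them for 1, Mcoln1 (35.8% of all probes).

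The 12 proteases, most of them cathepsins, which cut proteins in the acid lumen, were all called higher in I/R, with a median log2 FC of 2.87. Ctse, an aspartic protease of the endosomes of immune cells (probe at chr13:44605158-44605217, rn4), read -3.79, -4.20, and -4.40 on Sham 1 to 3, 1.45, 0.99, and -0.50 on I/R 1 to 3, and 0.20, -3.85, and -3.75 on DHI 1 to 3. I/R lay wholly above Sham, and DHI 1 lay within the range of the I/R arrays. Its log2 FC was 4.78 ± 1.05 (SE, limma, adjusted p = 0.0396). Ctsz, or cathepsin X, a carboxypeptidase that is abundant in phagocytes, read -2.68, -2.87, and -2.70 in Sham, then 2.61, 2.19, and 0.98 in I/R and 1.56, -2.64, and -1.78 in DHI. Every DHI array was above every Sham array for this gene, DHI 2 by the least. Its log2 FC in I/R was 4.67 ± 0.98 (SE). Ctsc, the dipeptidyl peptidase that activates the serine proteases of granules (chr1:144661035-144661094), read -2.60, -2.94, and -2.90 in Sham, then 2.06, 1.81, and 0.74 in I/R and 1.38, -3.14, and -2.36 in DHI. I/R was clear of Sham, and DHI 2 was the lowest of all 9 arrays. Ctsd, the main aspartic protease of lysosomes in every cell, is the gene with a CLEAR core 11 bases before its start. Its values were 4.21, 4.20, and 4.25 in Sham, then 7.01, 6.86, and 6.07 in I/R and 6.66, 4.29, and 4.41 in DHI, and its log2 FC in I/R was 2.43 ± 0.59 (SE). The Sham arrays of Ctsd were nearly equal, and each DHI array was above them. The other called proteases lay between Ctsh (log2 FC 3.30) and Ctsa (1.41), and included Ctsk (2.93), the collagen-cutting cathepsin of osteoclasts, Lgmn (2.89), an asparaginyl endopeptidase, Ctss (2.84), a cathepsin of antigen-presenting cells, Tpp1 (1.97), and Ctsb (1.43). Ctsf had the smallest rise of the proteases. It read 1.20, 1.27, and 1.64 in Sham, then 2.49, 2.03, and 1.60 in I/R and 1.82, 1.29, and 1.497 in DHI (chr1:207474500-207474559), so that I/R 3 lay within the Sham range, and it did not pass the adjusted p (0.0744).

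Of the 9 membrane proteins with a probe, 8 were called higher in I/R, with a median log2 FC of 1.61. Cd68, a glycoprotein of the LAMP family that marks macrophages and activated microglia (chr10:56481726-56481785), read -2.68, -3.02, and -3.07 in Sham, then 4.44, 4.14, and 2.73 in I/R and 3.62, -2.82, and -1.57 in DHI. The gap between the lowest I/R array and the highest Sham array was wide, and the log2 FC of 6.69 ± 1.45 (SE) was the highest of the 44 genes. Laptm5, a lysosomal transmembrane protein of blood-derived cells (chr5:149797871-149797930), read 2.12, 1.92, and 1.85 in Sham, then 6.33, 5.82, and 4.78 in I/R and 5.33, 2.13, and 2.68 in DHI. Its log2 FC was 3.68 ± 0.78 (SE), and DHI 2 exceeded the highest Sham array by little. Cd63, a tetraspanin of late endosomes in most cells (chr7:2210440-2210499), read 1.44, 1.41, and 1.62 in Sham, then 4.51, 4.26, and 3.44 in I/R and 4.14, 1.46, and 1.89 in DHI. Like those of the other membrane proteins called, its I/R arrays did not reach down to Sham. Lamp1 and Lamp2, the most abundant glycoproteins of the lysosomal membrane, had log2 FCs of 1.33 ± 0.37 and 2.37 ± 0.64 (SE). Lamp1, with 5 E-box cores before its start, read 1.91, 1.99, and 2.24 in Sham, then 3.85, 3.41, and 2.89 in I/R and 3.33, 2.06, and 2.22 in DHI. Scarb2, which carries glucocerebrosidase to the lysosome, had a log2 FC of 1.61, Laptm4a, a relative of Laptm5, an FC of 2.14 (adjusted p = 0.0614), and Cln3, whose loss causes a neuronal ceroid lipofuscinosis, a log2 FC of 0.71. Mcoln1, the calcium channel TRPML1 (chr12:2640194-2640253), was the exception. It read 0.99, 1.12, and 1.21 in Sham, then 0.45, 0.64, and 0.77 in I/R and 0.77, 0.95, and 0.87 in DHI. Every I/R array was below every Sham array, and the log2 FC was -0.49 ± 0.15 (SE, limma, unadjusted p = 0.0105, adjusted p = 0.0428), an FC of 1.40, which is under the study's threshold.

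**Figure D2:**
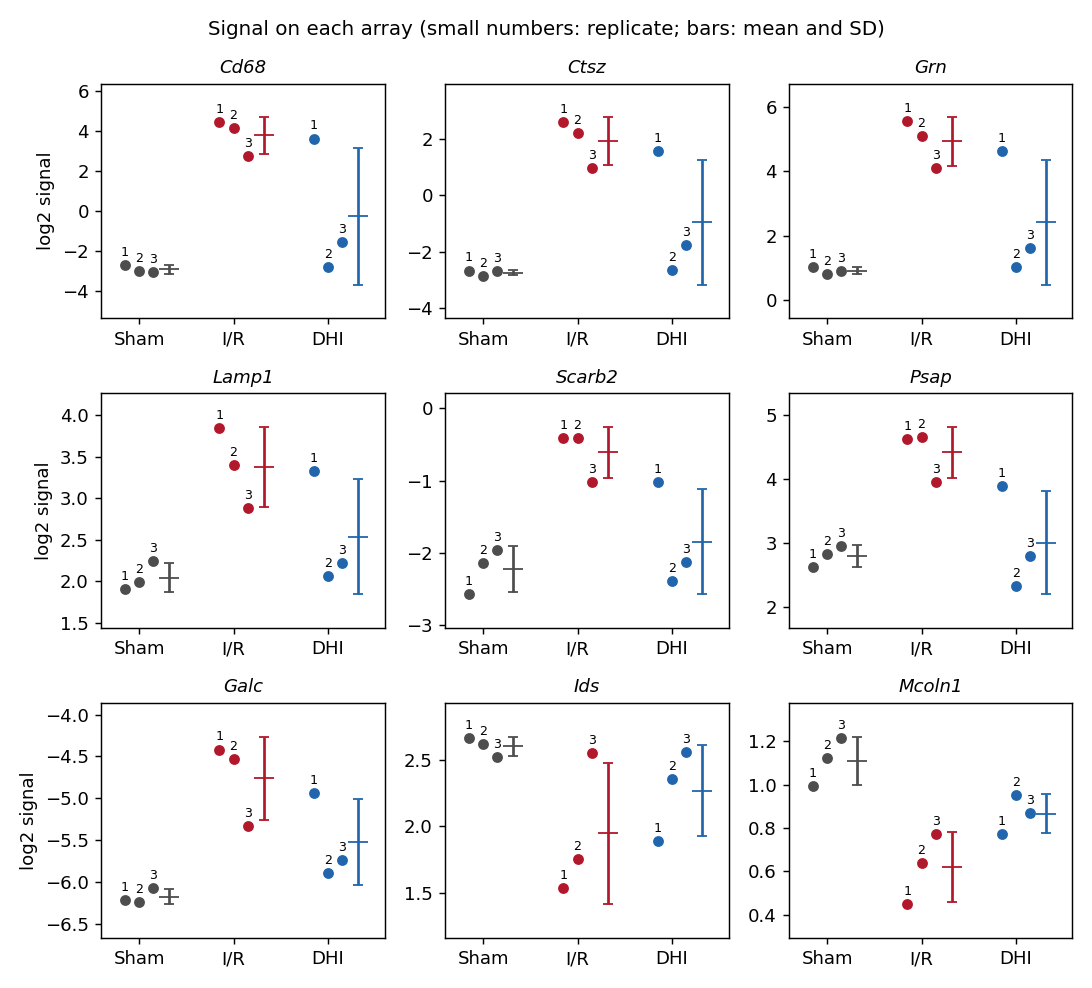
Log2 signal of 9 of the genes on each array (points, with the replicate number) and the mean with its SD for each group of 3 arrays (bars). DHI 1 lies beside the I/R arrays for Cd68, Ctsz, Grn, and Lamp1 while DHI 2 and DHI 3 lie near Sham, and Ids and Mcoln1 are lower on I/R 1 and I/R 2 than on every Sham array.

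The 10 enzymes and activators of sphingolipid breakdown divided into 7 that were called higher in I/R and 3 that were not, with a median log2 FC of 1.41. Glb1, the lysosomal beta-galactosidase (chr8:118863643-118863702), read -0.42, -0.51, and -0.42 in Sham, then 2.85, 2.43, and 1.38 in I/R and 1.83, -0.45, and -0.21 in DHI. Hexa, the alpha subunit of beta-hexosaminidase (chr8:63385458-63386057), read -1.25, -1.20, and -1.09 in Sham, then 1.95, 1.60, and 0.93 in I/R and 1.54, -1.13, and -0.84 in DHI. Both had a log2 FC of 2.67, with SEs of 0.61 and 0.65, and both were clear of Sham on every I/R array. Gm2a, the activator that presents ganglioside to beta-hexosaminidase (chr10:40513565-40513624), read -3.05, -3.08, and -2.64 in Sham, then 0.03, -0.71, and -1.45 in I/R and -0.85, -3.15, and -2.70 in DHI. Its DHI 2 and DHI 3 arrays were within or below the Sham range. Psap, the precursor of the saposins, which assist these hydrolases, had a log2 FC of 1.62 ± 0.39 (SE), Galc, the galactocerebrosidase that degrades a main lipid of myelin, one of 1.42 ± 0.32, Asah1, acid ceramidase, one of 1.41 (adjusted p = 0.0587), and Arsa, arylsulfatase A, one of 0.62. The 3 that were not called were Gla, alpha-galactosidase (log2 FC 0.48, adjusted p = 0.0985), Smpd1, acid sphingomyelinase (0.18, adjusted p = 0.349), and Neu1, the lysosomal sialidase. Neu1 (chr20:3999866-3999925) read -0.87, -0.64, and -0.58 in Sham, then -0.82, -0.81, and -1.05 in I/R and -1.07, -0.97, and -0.94 in DHI. Its Sham and I/R arrays overlapped, with a log2 FC of -0.20 ± 0.15 (SE, adjusted p = 0.298).

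The glycan-degrading enzymes were split in the same way. Of the 2 glycosaminoglycan enzymes with a probe, Arsb, a sulfatase of dermatan sulfate (chr2:24223762-24223821), was called higher with a log2 FC of 2.43 ± 0.66 (SE), and Ids was not called. Arsb read -0.01, -0.18, and 0.17 in Sham, then 3.12, 2.56, and 1.58 in I/R and 2.42, -0.12, and 0.30 in DHI. Ids, iduronate sulfatase, deficient in Hunter syndrome (chrX:156660940-156660999), read 2.67, 2.62, and 2.52 in Sham, then 1.54, 1.75, and 2.55 in I/R and 1.89, 2.36, and 2.56 in DHI. I/R 1 and I/R 2 were below Sham while I/R 3 was within its range, and the log2 FC of Ids was -0.66 ± 0.29 (SE, adjusted p = 0.1005). Its other probe gave a log2 FC of -0.74, also not called. Among the 5 enzymes of glycoprotein and glycogen breakdown, 4 were called higher, with a median log2 FC of 1.68. Man2b1, the alpha-mannosidase (chr19:24711379-24711438), read 1.85, 1.47, and 1.53 in Sham, then 4.99, 4.38, and 3.48 in I/R and 4.08, 1.76, and 2.00 in DHI, a log2 FC of 2.67 ± 0.62 (SE) in I/R. Fuca1, the alpha-fucosidase (chr5:154720903-154720962), read 2.77, 2.74, and 2.85 in Sham, then 5.54, 5.14, and 4.35 in I/R and 4.76, 2.81, and 2.97 in DHI. Manba, the beta-mannosidase (chr2:233077621-233077680), read -0.26, 0.03, and 0.09 in Sham, then 2.17, 1.75, and 0.99 in I/R and 1.52, -0.13, and 0.11 in DHI. For these 3 enzymes no I/R array reached down to the Sham range. Aga, which removes asparagine-linked sugar stubs, had a log2 FC of 1.63. Gaa, the acid alpha-glucosidase that degrades glycogen, was not called (log2 FC 0.84 ± 0.37, SE, adjusted p = 0.102). It read 1.73, 0.98, and 1.73 in Sham, then 2.68, 2.44, and 1.81 in I/R and 2.32, 1.18, and 1.91 in DHI, so that Sham 2 lay apart from the other Sham arrays.

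Of the 6 genes for lipid handling, phosphatases, and progranulin, 4 were called higher in I/R, with a median log2 FC of 2.70. Acp5, the tartrate-resistant acid phosphatase of osteoclasts and macrophages, read -1.64, -2.02, and -2.32 in Sham, then 3.17, 3.22, and 1.08 in I/R and 1.497, -2.06, and -1.32 in DHI. Grn, or progranulin, a secreted and lysosomal protein whose partial loss causes frontotemporal dementia (chr10:91541880-91541939), read 1.04, 0.82, and 0.90 in Sham, then 5.58, 5.11, and 4.10 in I/R and 4.63, 1.03, and 1.61 in DHI. Npc2, which hands cholesterol on to the exporter NPC1 (chr6:108794590-108798310), read 0.27, 0.00, and 0.32 in Sham, then 4.44, 4.05, and 3.16 in I/R and 3.76, 0.33, and 1.05 in DHI. These 3 genes had log2 FCs of 4.48 ± 0.93, 4.01 ± 0.86, and 3.69 ± 0.80 (SE), and for each the lowest I/R array was above the highest Sham array. Lipa, the acid lipase that hydrolyzes cholesterol esters, had a log2 FC of 1.71, and Acp2, a lysosomal acid phosphatase, one of 0.42 (not called, adjusted p = 0.107).

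Ppt1, a thioesterase that removes palmitate from proteins, depended on the probe. Its brightest probe (chr5:142173981-142174040) read 2.16, 2.26, and 2.44 in Sham, then 2.84, 2.59, and 2.32 in I/R and 2.47, 2.35, and 2.24 in DHI, a log2 FC in I/R of 0.30 ± 0.18 (SE, adjusted p = 0.197). Its other probe (chr5:142173341-142173400) read 0.49, 0.52, and 0.65 in Sham, then 2.89, 2.41, and 1.71 in I/R and 2.16, 0.54, and 0.68 in DHI. On that probe the I/R arrays were clear of Sham, with a log2 FC of 1.78 ± 0.46 (SE, adjusted p = 0.0396). Glb1, Arsa, Grn, and Ids also had 2 probes each, and for these genes both probes gave the same calls in all 3 comparisons. Npc1, the membrane exporter of cholesterol, had no probe under its own name, but 2 probes listed under the symbol Cdig2 carried an accession that RefSeq gives to Npc1. Their log2 FCs in I/R versus Sham were 0.65 ± 0.34 and 0.74 ± 0.34 (SE, adjusted p = 0.158 and 0.113), and they are not counted among the 44 genes.

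**Figure D3:**
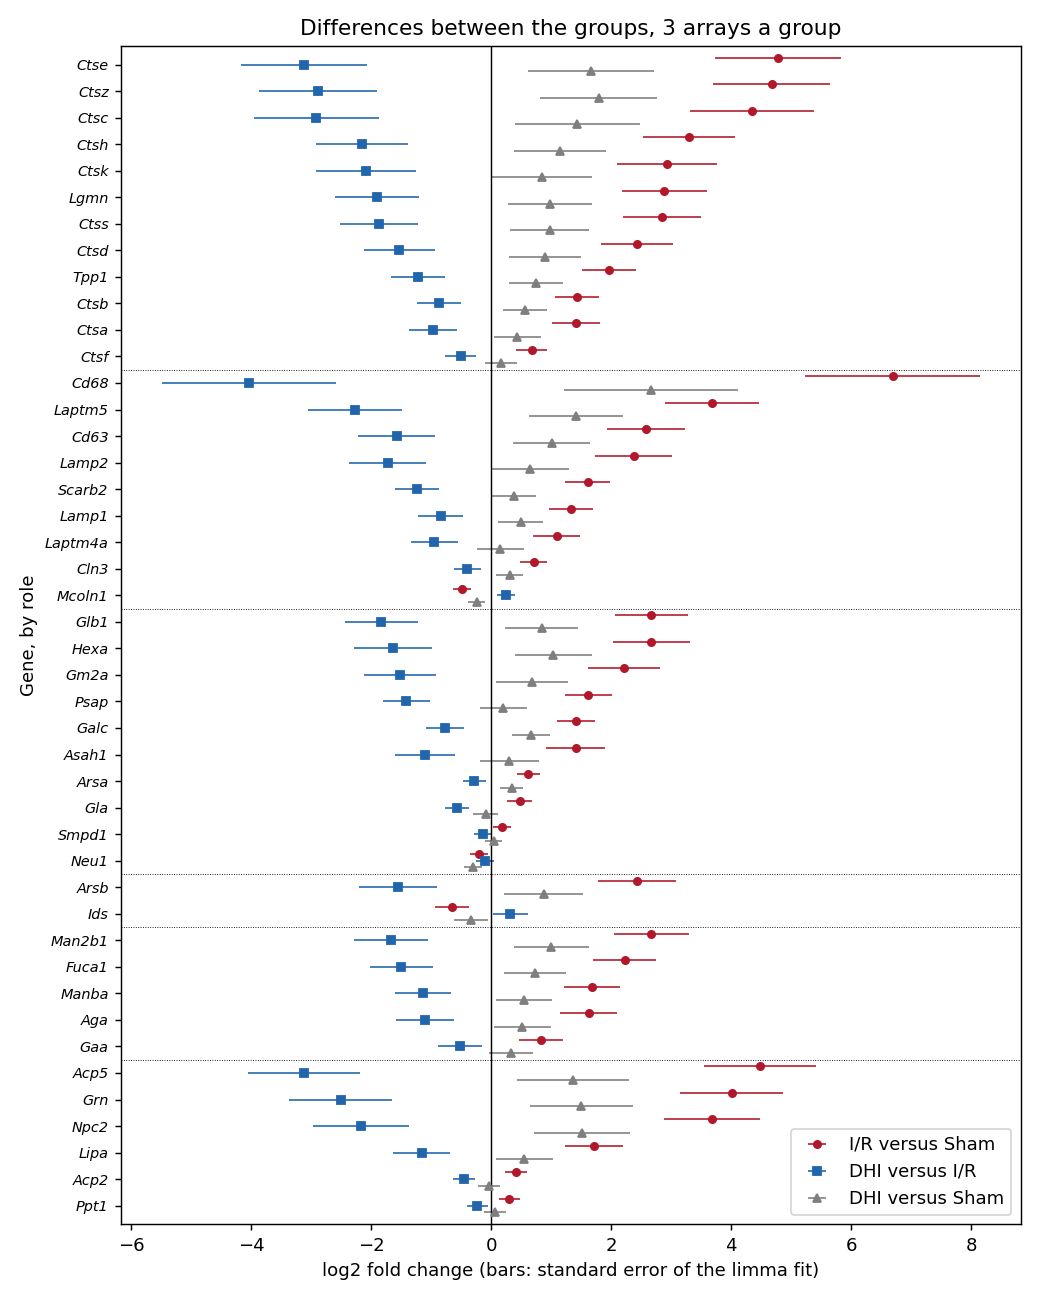
Log2 fold change of each of the 44 genes (by role, in the order of the plot of the arrays) in the 3 comparisons, with the standard error of the limma fit over 9 arrays (horizontal bars). In I/R versus Sham 41 genes lie to the right of 0, in DHI versus I/R 42 lie to the left, and in DHI versus Sham 39 lie to the right at smaller values.

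Within the list, the size of the rise varied. The 8 genes known from mononuclear phagocytes or osteoclasts (Cd68, Ctsc, Ctsh, Ctsk, Ctss, Ctsz, Laptm5, and Acp5) were all called higher in I/R, with a median log2 FC of 4.02. The other 36 genes had a median log2 FC of 1.62, and 28 of them were called higher. Ctse, known from immune cells more widely, is not in the list of 8, and with it the 9 genes had a median of 4.35 and the other 35 one of 1.61. Of the 37 genes with both a probe and a promoter in the table, the 9 with an E-box core had a median log2 FC of 1.33 with 7 called higher, and the 28 without had a median of 2.30 with 23 called higher. The 4 genes with the PU.1 word had log2 FCs of 4.78 (Ctse), 4.35 (Ctsc), 2.84 (Ctss), and 0.48 (Gla). These groups are small and are given as a description.

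Markers of cell types moved with the lysosomal genes, and their part in the result was not tested. Of 16 microglia and macrophage markers, 15 were called higher in I/R, with a median log2 FC of 3.60. The remaining one, the chemokine receptor Cx3cr1, read 1.36, 1.90, and 1.54 in Sham and 0.93, 0.81, and 0.07 in I/R (adjusted p = 0.157, not called). The median deviation of the 16 markers from the Sham mean was between -0.08 and 0.19 in Sham, between 2.86 and 4.22 in I/R, and 3.47, 0.04, and 0.51 on DHI 1, 2, and 3. The I/R and DHI arrays thus stood in the order they had for the lysosomal genes. C1qb and C1qa, complement subunits made by microglia, rose by 3.61 and 3.97 on the log2 scale. All 10 neuron markers were called lower, with a median log2 FC of -2.37, and their median deviation was between -3.54 and -1.11 in I/R and -1.97, 0.27, and -0.11 on DHI 1, 2, and 3. The markers of the 16-gene microglia list were all well above background on the Sham arrays, so that none was without signal there.

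The rest of the lysosomal pathway did not rise as one. Of 22 other lysosomal hydrolases and activators tested, 15 were called higher in I/R and 2 were called lower, with a median log2 FC of 1.18. Rnaset2, an acid ribonuclease, had a log2 FC of 3.83 ± 0.82 (SE). Ctsw, a cathepsin of cytotoxic lymphocytes, was dim on every Sham array, not well above background, and lay at least 8.25-fold higher in I/R, a bound set by the lowest signal well above background on each Sham array (log2 FC of the limma fit 3.98, adjusted p = 0.0396). The 2 called lower were Arsg (-1.95), a sulfatase, and Pcyox1 (-0.67), which degrades prenylcysteine. Of 20 other lysosomal membrane proteins and transporters, 10 were called higher and 2 lower, with a median of 0.69. The peptide transporter Slc15a3 (4.96) and the metal transporter Slc11a1 (3.15), both known from macrophages, rose most, and Abcb9 (-1.03) and the potassium channel Tmem175 (-0.61) were lower. The vacuolar ATPase, the proton pump, went the other way. Of 21 subunits tested, 13 were called lower and 3 higher in I/R, with a median log2 FC of -0.85. The lower ones included Atp6v1g2 (-2.26 ± 0.67, SE), the subunit known from neurons, and Atp6v1e1 (-1.38 ± 0.35). Atp6v1g2 read 3.14, 3.41, and 3.29 in Sham, then 0.02, 0.56, and 2.46 in I/R and 1.66, 3.53, and 2.95 in DHI. The 3 called higher were Tcirg1 (2.72), the membrane subunit of osteoclasts, Atp6v0e1 (1.55), and Atp6v0d2, a subunit known from osteoclasts and macrophages, which was dim on every Sham array in the same sense and lay at least 5.74-fold higher in I/R.

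Genes that send enzymes to lysosomes or regulate them showed small shifts as groups. By the same thresholds 20.8% of the whole set of probes rose from Sham to I/R and 22.3% fell. The counts that follow therefore do not by themselves set these lists apart. Of 10 sorting receptors and mannose 6-phosphate enzymes, 2 were called higher, M6pr (1.13), the cation-dependent receptor, and Nagpa (0.87), and 3 lower, among them Sorl1 (-1.89) and the adaptor Gga3 (-1.19), with a median of -0.14. Of 11 MiT/TFE factors and genes that dock mTORC1 at the lysosome, 3 were called higher and 3 lower, with a median of 0.02. Tfeb, the factor known to bind the CLEAR element, read -3.62, -3.92, and -3.55 in Sham, then -1.93, -2.24, and -2.96 in I/R and -2.19, -3.16, and -2.82 in DHI. Each I/R and each DHI array of Tfeb was above each Sham array, with a log2 FC in I/R of 1.32 ± 0.33 (SE, adjusted p = 0.0396). Its relative Tfec was not well above background in Sham and lay at least 8.67-fold higher in I/R. Rragd (-1.27) and Mtor (-0.72) were called lower. Of 8 cathepsin inhibitors, 3 were called higher, among them Serpinb1a (4.21) and Serpina3n (3.30), and 2 lower. Of 18 autophagy genes, 2 were called higher (Gabarap, 0.88, and Atg7, 0.69) and 5 lower, among them Wipi2 (-1.24) and Gabarapl1 (-1.23), with a median of -0.29.

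Within slide 1, the methods' t-test was run on the Sham and I/R arrays alone, without limma. At the study's thresholds it called 34 of the 44 genes and 19.6% of all probes higher. Leaving out 1 array at a time from the model of all 9 arrays gave 31 to 38 genes called higher, against 16.4% to 24.8% of all probes. Of the 44 genes, 31 were called higher in all 9 such fits, a share that was not computed over all probes. The adjusted count of 33 fell to 0 when any one of the Sham arrays was left out. It also fell to 0 when I/R 1, I/R 2, or DHI 3 was left out, and with no scaling between arrays. The share of all probes that passed the adjusted p in these fits was not computed.

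**Figure D4:**
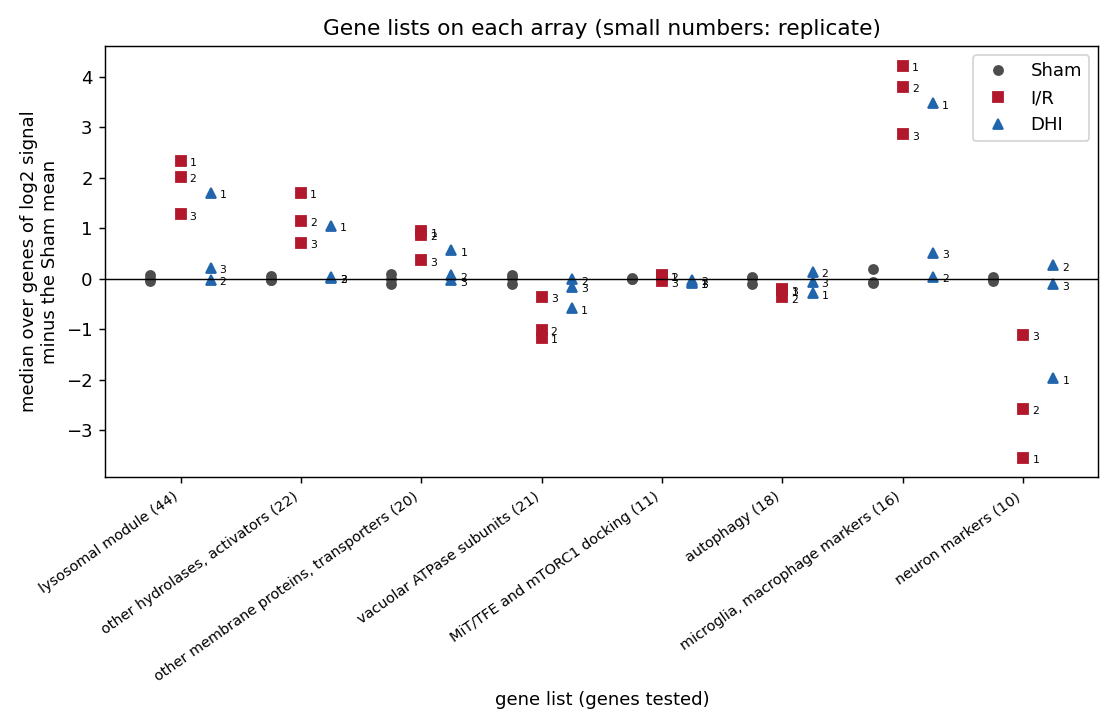
Median over the genes of a list of the log2 signal minus the Sham mean, for each of the 9 arrays (points, with the replicate number for I/R and DHI), for the 44 lysosomal genes, other lysosomal lists, autophagy genes, and 2 marker lists, with the number of genes tested in parentheses. The 44 lysosomal genes, the other hydrolases, the other membrane proteins, and the microglia and macrophage markers lie above 0 on the I/R arrays and DHI 1. The vacuolar ATPase subunits, autophagy genes, and neuron markers lie below 0 there, and the MiT/TFE and mTORC1 docking genes lie near 0.

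In DHI versus I/R, most of the lysosomal genes were lower after treatment by the unadjusted p of limma, and none by its adjusted p. The methods' t-test at the study's thresholds also called 0 of the 44 genes, with 0.737% of all probes lower and 1.24% higher. At these thresholds limma called 30 of 44 genes lower in DHI and 0 higher, while 10.5% of all probes were called lower and 11.5% higher (21.9% in either direction). The scaling moved the split over all probes, to 1.5% higher and 29.8% lower with no scaling, which shifted the median log2 FC of all probes from 0.10 to -0.36, and then 40 of the 44 genes were called lower. The changes with the greatest size were those of Cd68 (log2 FC -4.03 ± 1.45, SE), Ctse (-3.11 ± 1.05), and Acp5 (-3.11 ± 0.93). After adjustment limma called 0 of the 44 genes (0.00421% of all probes), with adjusted p-values of 0.196 and above, while 32 had an unadjusted p under 0.05, all of them lower. The log2 FC was positive for 2 of the 44 genes and for 56.9% of all probes, with a median of -1.32 over the genes and 0.10 over all probes. The I/R arrays of this comparison are those compared with Sham above, so that a gene high in I/R enters both.

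By role, 11 of 12 proteases were called lower in DHI (median log2 FC -1.89), the exception being Ctsf (-0.51). Of the membrane proteins 6 of 9 were called lower, with a median of -1.24, among them Laptm5 (-2.27), Lamp2 (-1.73), and Cd63 (-1.57). Lamp1 had a log2 FC of -0.84 (unadjusted p = 0.0533, limma over 9 arrays) and was not called. Sphingolipid enzymes were called lower in 5 of 10 cases (median -0.93), with Glb1 at -1.83 and Hexa at -1.63. Arsb (-1.55) was called among the 2 glycosaminoglycan enzymes, and 3 of 5 enzymes of glycoprotein and glycogen breakdown were called (median -1.14), with Man2b1 at -1.67 and Manba at -1.14. Of the last group 4 of 6 were called (median -1.66), with Grn at -2.51 and Npc2 at -2.17. All 8 genes known from phagocytes or osteoclasts were called lower, with a median of -2.57, and 22 of the other 36, with a median of -1.12. Mcoln1 (0.25) and Ids (0.32) were the 2 genes with a positive log2 FC, neither was called, and both values were negative with no scaling (-0.21 and -0.14).

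Scarb2 and Psap, 2 of the 44 genes (4.55%), had all DHI arrays below all I/R arrays, a share near the 4.03% of all probes. Scarb2 (chr14:17168802-17168861) read -2.57, -2.13, and -1.96 in Sham, then -0.41, -0.41, and -1.02 in I/R and -1.02, -2.39, and -2.13 in DHI, where DHI 1 lay just under I/R 3. Psap (chr20:27619591-27619650) read 2.62, 2.82, and 2.95 in Sham, then 4.62, 4.66, and 3.96 in I/R and 3.89, 2.32, and 2.79 in DHI. For both genes DHI 2 and DHI 3 were within or below the Sham range and DHI 1 was close to the lowest I/R array. Their log2 FCs in DHI versus I/R were -1.24 ± 0.37 and -1.41 ± 0.39 (SE, limma, adjusted p = 0.196 for each). Mcoln1 was the 1 gene with all DHI arrays above all I/R arrays, DHI 1 by a narrow margin, against 5.51% of all probes.

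Cell type markers moved in this comparison too, and their part was not tested. Of the 16 microglia and macrophage markers 12 were called lower in DHI (median -2.35), and of the 10 neuron markers 7 were called higher (median 1.70). The vacuolar ATPase had 6 subunits called higher and 2 lower, Tcirg1 (-1.75) and Atp6v0e1 (-1.20). Of the other hydrolases 12 of 22 were called lower and 1, Arsg (1.33), higher.

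The count of 30 rested on single arrays, and the share of all probes called lower (10.5%) moved in the same direction. Leaving out I/R 1 gave a count of 3 (2.08% of all probes), leaving out I/R 2 gave 5 (2.87%), and leaving out DHI 2 or DHI 3 gave 3 each (1.8% and 2.13%). It was 20 or 21 without one of the Sham arrays (7.79% to 8.06%), and 36 without DHI 1 (19.1%). Without DHI 1, 35 genes also passed the adjusted p, a share that was not computed over all probes. The count was 0 by the methods' t-test, which used the DHI and I/R arrays alone and not limma (0.737%). Only Scarb2, Psap, and Acp5 were called lower in all 9 fits that left out 1 array, a share that was not computed over all probes.

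In DHI versus Sham, limma called 0 of the 44 genes at the study's thresholds, where 3.58% of all probes were called (2.52% higher and 1.06% lower), 0 had an unadjusted p under 0.05, and 0 passed the adjusted p. The methods' t-test also called 0. Over all probes the split was 0.371% higher and 6.74% lower with no scaling, and then 0 of the 44 genes were called as well. The median log2 FC of the 44 genes was 0.65, against 0.02 over all probes, and 39 of the 44 values were positive (51.8% of all probes). With an SE of 1.45 for Cd68 (log2 FC 2.66) and of 0.98 for Ctsz (1.79), the 3 DHI arrays do not show whether the genes were back at the Sham level. The lowest unadjusted p was that of Galc (0.0712, limma, log2 FC 0.66 ± 0.32, SE). Galc (chr6:122379881-122387949) read -6.22, -6.24, and -6.08 in Sham, then -4.42, -4.54, and -5.33 in I/R and -4.93, -5.89, and -5.74 in DHI. It was 1 of 7 genes with every DHI array above every Sham array (10.3% of all probes), with Ctsd, Ctsz, Laptm5, Cln3, Arsa, and Npc2. Mcoln1 and Neu1 were the 2 with every DHI array below every Sham array (8.34% of all probes), with log2 FCs of -0.24 and -0.30. Outside the 44 genes, Tfeb (0.97 ± 0.33, SE) and the membrane protein Litaf (1.15 ± 0.49) were called higher in DHI than in Sham, and the cathepsin inhibitor Csta was called lower (adjusted p = 0.709 for each). Without DHI 2, 11 of the 44 genes were called higher in DHI than in Sham, where 7.74% of all probes were, and without DHI 1 the median log2 FC of the 44 genes was 0.09.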

How the data were processed

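Total RNA of the infarcted hemisphere was labeled with Cy3 and hybridized to Agilent SurePrint G3 Rat arrays, 3 per group. The authors deposited the output of Agilent Feature Extraction (version 10.7.1.1 per the labels), in which every spot has an intensity, linear and background-corrected but not scaled across arrays. A second deposited file, the series table, holds log2 values that followed quantile-normalized intensities on every array (Pearson's r above 0.999 across probes, which are not independent replicates) and was used as an alternative. Other deposited columns used were the software's flags for spots above background, saturated, or outlying.

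The 75th percentile of the intensity was between 1816 and 3464 over the 9 arrays, and 75.2% to 78.9% of an array's probes were well above background, that is, on at least 0.5 of their spots. Control and outlier spots were removed, and spots of one probe averaged. Probes that were well above background on every array of some group were tested with limma 3.58.1 (lmFit and eBayes, 6 residual degrees of freedom) in R 4.3.3 with the data.table package (version 1.17.8). Of the 44 genes, the accession of 41 matched RefSeq under the same symbol. Probe coordinates are those of the files (rn4), with no annotation of exons. No sample's column of the series table was left unused (0 columns).

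The genes, roles, pathway lists, and marker lists were chosen with earlier results of these data known, so the patterns shown are no independent evidence. Genes given on every array were, in each role, the 3 genes that rose most and the 1 that fell most or rose least in I/R versus Sham, and the 3 largest changes in each direction in the other comparisons. Scarb2, Psap, Galc, Ctsd, Lamp1, Tfeb, and Atp6v1g2 were added after their values were seen, as were the pathway genes outside the 2 largest rises and 2 largest falls called in a list. The labels give the groups and number the replicates. The correlation of the deviations of same-numbered samples ran from -0.34 to 0.48, and the numbers were not taken to pair the samples. The alternatives for the values were normalization by quantiles or by no scaling, background correction by normexp (offset 50), and the series table. Dim probes were tested too, or only those above background on all 9 arrays. Further alternatives were array weights, a block for the replicate number, the adjusted p, the mean over a gene's probes, and leaving out each array in turn. The methods' t-test on only the 2 groups compared was run as well. A planned limma model of only the 2 groups was not run, and the t-test stood in its place. The steps were tested on simulated data in which a probe had the same spread in every group. That simulation cannot show how the calls behave where the groups differ in spread, as they do here.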

Additional observations from a re-analysis of the deposited data

How the results depend on the processing

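In I/R versus Sham the number of genes called in either direction (36) was between 33 and 38 under every alternative other than leaving out an array, and between 31 and 39 when 1 array was left out, and the median log2 FC (1.84) was then between 1.62 and 2.16. With the replicate number as a block 38 genes were called in I/R versus Sham, 37 higher (21% of all probes) and 1 lower (22.8%). In DHI versus I/R 31 were called with the block, all lower (12.3% of all probes). In DHI versus Sham 0 were called (3.75% of all probes higher and 1.64% lower), so that the block moved no count by over 1.5 times. In DHI versus I/R the count of 30 was 0 by the methods' t-test on the 2 groups alone, at the study's thresholds and after adjustment. This count was also 0 with the adjusted p in the model of 9 arrays. It was between 3 and 36 when 1 array was left out, with a median log2 FC between -1.79 and -1.01. With array weights 36 genes were called, 35 lower and 1 higher, where 22.4% of all probes were called lower and 29% higher. By the adjusted p 36 were called as well, a share that was not computed over all probes. In DHI versus Sham the count of 0 was 6 with array weights, all higher, where 13.5% of all probes were called higher, a like share, and it was between 0 and 11 when 1 array was left out, 11 without DHI 2 and 1 without I/R 3, with a median log2 FC between 0.09 and 0.99.

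Of the 2772 values of the 44 single genes over the alternatives, 2416 kept their direction and their side of the threshold, 77 gained the call, 30 changed sign, 0 of them for a value that had been called, and the rest lost the call. Of these 30, 28 were in DHI versus Sham. The t-test also stood in for the planned model of only the groups compared, so its values enter these counts more than once. With no scaling the log2 FC in DHI versus I/R was -0.2145 for Mcoln1 and -0.1376 for Ids, and in DHI versus Sham it was -0.0981 for Ctsf, -0.1131 for Laptm4a, -0.2233 for Smpd1, -0.059 for Psap, and -0.1995 for Ppt1. With array weights it was, in DHI versus Sham, -0.0116 for Ctsa, -0.4974 for Ctsk, -0.1948 for Laptm4a, -0.1807 for Asah1, -0.1285 for Smpd1, -0.0443 for Psap, -0.1529 for Lipa, and -0.0768 for Ppt1. It was 0.0035 for Acp2 with quantile normalization and 0.1758 for Gla with normexp. When 1 array was left out, the log2 FC in DHI versus Sham of the genes that changed sign was between -0.2855 and 1.5541 for Ctsk, -0.1375 and 1.214 for Lamp2, -0.0368 and 0.6461 for Scarb2, -0.358 and 0.5059 for Laptm4a, -0.2982 and 0.694 for Asah1, -0.0179 and 0.1182 for Smpd1, -0.0026 and 1.1435 for Gm2a, -0.2391 and 0.5454 for Psap, and -0.045 and 0.9002 for Aga, each lowest without DHI 1. It was between -2e-04 (without Sham 1) and 0.1417 for Ppt1, -0.2384 and 0.0166 for Gla, which was positive without DHI 2, and -0.1981 and 0.0759 for Acp2, which was positive without DHI 2 or DHI 3. The cause of these changes was not tested. Counting Ctse, after seeing the data, among the genes known from phagocytes moved their median from 4.02 to 4.35 in I/R versus Sham and from -2.57 to -2.88 in DHI versus I/R. The number of arrays limits every value.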

Other observations

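Other cell type markers moved less uniformly than those of microglia and neurons. In I/R versus Sham, 4 of 8 astrocyte markers were called higher and 1 lower (median log2 FC 0.54), with Gfap at 3.63 ± 0.67 (SE, limma, adjusted p = 0.0396). Of 8 oligodendrocyte markers 1 was called higher, of 7 endothelial markers 3, of 5 T cell markers 3, and of 4 neutrophil markers 3, with none of these lists having a marker called lower. Of 4 red blood cell markers 1 was called higher and 3 lower. Of 6 choroid plexus markers 2 were called higher, and their mean level was between -3.75 and 0.97 over the DHI arrays. Ttr, a transport protein of the choroid plexus, read -0.54, 0.19, and 6.53 in I/R and 7.05, 2.88, and 6.20 in DHI, against -0.65, -1.65, and -0.21 in Sham, an order of arrays unlike that of the lysosomal genes, for which I/R 3 was the lowest I/R array.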
